A study of Mus musculus with 16 samples.

Results

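The clustered histone genes were followed in adipose progenitors, the fat-forming precursor cells of adipose tissue, with and without the nuclear receptor gene Nr4a1. The members were all rows of the count matrix whose symbol begins with Hist1h, Hist2h, Hist3h or Hist4h, which gave 70 of 38720 rows. They comprised 6 linker histone H1 genes, 20 H2A genes, 19 H2B genes, 12 H3 genes and 13 H4 genes. In the GENCODE annotation of mouse GRCm38 (mm10), 67 of them were protein-coding and 3 were pseudogenes, Hist1h2aj, Hist1h2al and Hist3h2bb-ps.

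RNA sequencing libraries came from progenitors of visceral adipose tissue (VAT) and subcutaneous adipose tissue (SAT) of 4-week-old mice, with 4 libraries in each of 4 groups. The groups were Nr4a1-/- VAT, Nr4a1+/+ VAT, Nr4a1-/- SAT and Nr4a1+/+ SAT, called KO VAT, WT VAT, KO SAT and WT SAT here. KO mice are labelled with the constitutive allele B6;129S2-Nr4a1tm1Jmi/J and WT mice as wild type, and both carry the strain label C57BL/6J, so genotype cannot be told apart from the flanking or background DNA of the allele's origin, nor from litter or cage. The labels do not say whether libraries came from separate animals or pools, and give no sex. The p-values therefore cover the spread among these libraries and no more. The column names carry the term MACS, and how the progenitors were selected is not given in the sources used here.

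Histone proteins package DNA into nucleosomes, with H2A, H2B, H3 and H4 forming the core and H1 binding the linker DNA between cores. Most of the clustered genes are replication-dependent copies, which are transcribed mainly in S phase when new DNA needs new nucleosomes. Their messenger RNAs typically lack introns and a poly(A) tail, and end instead just after a conserved stem-loop that is bound by the stem-loop binding protein SLBP and cleaved with help of the U7 small nuclear ribonucleoprotein. Some clustered genes are also known to give longer, polyadenylated transcripts that read past the stem-loop in differentiated or resting cells.

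The stem-loop is the feature that sets these genes apart in sequence, and it is shown here for the most abundant member with a match of each type, and for Hist1h4c, which had no count in any library. The sequences are the annotated GENCODE transcripts on GRCm38, written 5′ to 3′ with T for U, and the capitals mark the 16-letter stem-loop.
Hist1h1c: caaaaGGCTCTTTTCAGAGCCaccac
Hist3h2a: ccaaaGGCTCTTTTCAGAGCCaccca
Hist1h2be: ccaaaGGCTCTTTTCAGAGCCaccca
Hist2h3c2: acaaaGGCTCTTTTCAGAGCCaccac
Hist1h4i: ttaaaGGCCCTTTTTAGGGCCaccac
Hist1h4c: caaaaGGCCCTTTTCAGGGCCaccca
The capitals lie at chr13:23739512-23739527 on the plus strand for Hist1h1c and at chr11:58955172-58955187 on the plus strand for Hist3h2a. The Hist1h2be loop lies at chr13:23585531-23585546 and the Hist2h3c2 loop at chr3:96238485-96238500, both on the minus strand. The loops of Hist1h4i and Hist1h4c lie on the minus strand at chr13:22040966-22040981 and chr13:23698089-23698104.

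The letters GGCTCTTTTNAGAGCC or GGCCCTTTTNAGGGCC, searched on the strand of the transcript only, with no overlap between the 2 forms, were found in 42 of the 67 protein-coding members (62.7%). The first form stood in H1, H2A, H2B and H3 members and the second in H4 members. They were found in 3 of 21810 other protein-coding genes (0.0138%), namely H2afx, a replication-linked H2A variant gene, H2bfm, and Trim17, whose exons overlap Hist3h2a on the same strand. The members without a match include Hist1h2bc and Hist2h2be, and no match says only that these letters are not in the annotated transcript. The polyadenylation signal AATAAA stood in the last 50 bases of a protein-coding transcript in 14 of these 67 members (20.9%), against 14372 of the other protein-coding genes (65.9%). It stood at the end of any annotated transcript in 15 members.

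The Hist1 set holds 56 members on chromosome 13, and all but the pseudogene Hist1h2al lie between the start of Hist1h2bl (21715763) and the end of Hist1h2aa (23934851). The Hist2 set holds 10 members within 50.3 kb of chromosome 3, Hist3 holds 3 within 7.9 kb of chromosome 11, and Hist4h4 stands alone on chromosome 6. Within these sets, 15 pairs of members start head to head with at most 1000 bases between them, 14 of them an H2A gene beside an H2B gene.

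Reads of the clustered histones were few and came from a handful of genes. All members together took between 0.00578% and 0.0140% of a library's counts, where libraries held 34655519 to 55551845 counts over genes. Hist1h1c alone, which encodes the linker histone H1.2, gave 41830 of the 68004 member counts (61.5%), and with Hist1h2bc, a core H2B gene, 86.6%. Adding Hist2h2be and Hist3h2a brought the share to 95.7%. By type, H1 took 62.0% of member counts, H2B 31.6%, H2A 4.32%, H3 1.17% and H4 0.968%.

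Levels are given as CPM, the counts of a gene scaled to a common library size after edgeR's TMM normalization. Hist1h1c averaged 59.0 CPM over the 16 libraries, Hist1h2bc 24.2 CPM, Hist2h2be 4.92 CPM and Hist3h2a 3.79 CPM. Every other member averaged under 1 CPM, led by Hist1h2be at 0.931 CPM and the H3 gene Hist2h3c2 at 0.875 CPM. The H4 genes reached at most 0.330 CPM (Hist1h4i). Per kilobase of annotated exon, where genes can be compared, Hist1h1c stood at 37.8 CPM per kb, Hist1h2bc at 20.9, Hist2h2be at 1.88, Hist3h2a at 1.77 and Hist2h3c2 at 0.858 CPM per kb.

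**Figure D1:**
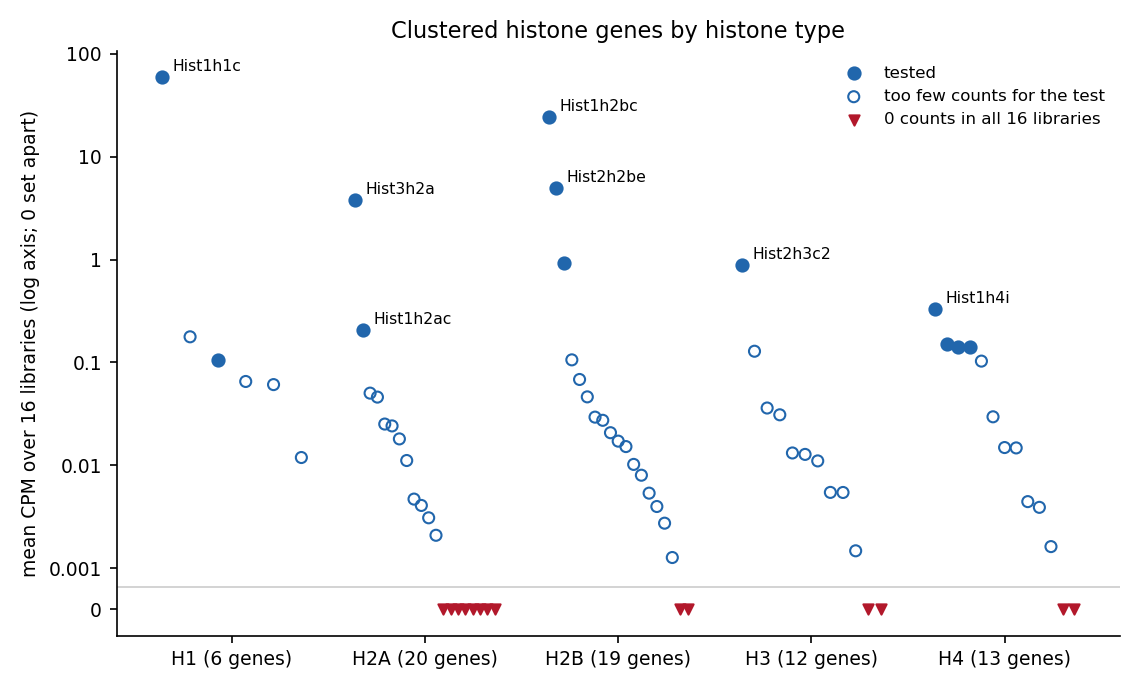
Mean CPM over 16 libraries (log axis, with 0 set apart) of each of the 70 members, by histone type; filled circles passed edgeR's filter on low counts, open circles did not, and triangles had no count. Hist1h1c and Hist1h2bc stand above 20 CPM, while most members lie under 0.1 CPM and 8 of the 14 members without a count are H2A genes.

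Only 12 members had enough counts to be tested: 2 H1, 2 H2A, 3 H2B, 1 H3 and 4 H4 genes. The other 58 shared 910 counts over all 16 libraries, and 14 of these had none. The 3-count limit that a count of 0 allows was 0.0584 to 0.1002 CPM per library, and it covers counting error only. The 14 members with no count were 8 H2A genes (Hist1h2aa, Hist1h2ag, Hist1h2ah, Hist1h2aj, Hist1h2ao, Hist1h2ap, Hist2h2aa1 and Hist2h2aa2), the H2B genes Hist1h2bq and Hist1h2br, the H3 genes Hist2h3b and Hist2h3c1, and the H4 genes Hist1h4c and Hist1h4n.

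Counts went with how unique a member's sequence is. Each member's transcripts were cut into overlapping windows of 75 bases, the read length, and a window was called shared if it also occurs in a transcript of another gene on either strand. The median share of such windows was 92.5% in the 14 members without a count, 43.8% in the 44 untested members with a count and 18.3% in the 12 tested members. The 19 members with at least 75% of windows shared held 22 counts together. Hist2h2aa1 and Hist2h2aa2, and likewise Hist2h3b and Hist2h3c1, had 100% of windows shared, so that a read from one could equally come from another gene. Other annotated genes also overlap 100% of the exon bases of each of these. The treatment of reads with several matches is not stated in the labels or files, and such genes are uncertain. Hist1h4c and Hist1h2aa were the exceptions among the genes without a count, with 16.9% and 17.4% of windows shared.

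Counts also went with how far the annotated transcript runs past the stem-loop. In 21 members the annotated transcript ended within 100 bases of the loop, and these held 323 counts. In the other 21 members with a loop it ran on for 151 to 4884 bases, and these held 46779 counts, of which Hist1h1c, with 840 bases after the loop shown above, gave most. The 2 kinds also differed in shared sequence: the median share of shared windows was 56.6% in the shorter kind and 16.9% in the longer kind, with median exon lengths of 485 and 1261 bases, so the 2 relations cannot be told apart here. Of the 8 tested members with a loop, 7 were of this longer kind, and Hist1h4h, with 46 bases after its loop, was the exception. In the longer kind Hist1h4c (454 bases) and Hist2h3c1 (1167 bases) had no count. The sources used here do not say whether RNA was selected by poly(A) or depleted of rRNA. The 10 small RNA genes whose products carry no poly(A) tail, among them Rmrp and Rn7sk, summed to 0.466 to 2.77 CPM per library, and Rnu7, the U7 RNA gene, was at 0 in every library. The part of RNA selection in these levels was not tested.

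**Figure D2:**
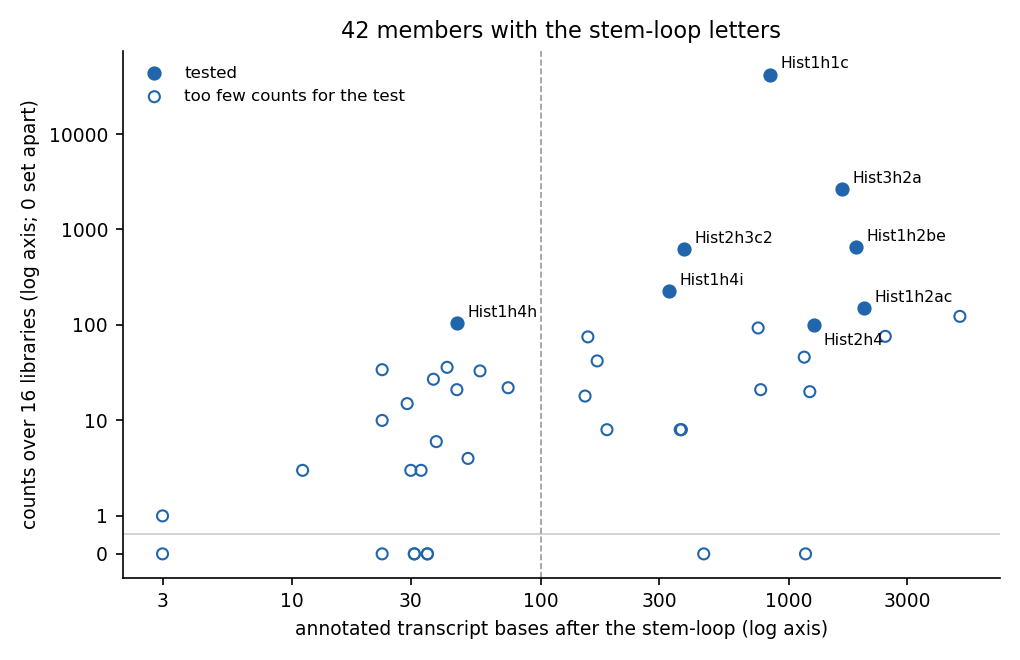
Counts summed over 16 libraries (log axis, 0 set apart) against annotated transcript bases after the stem-loop (log axis) for the 42 members with the stem-loop letters; filled circles were tested, open circles were not, and the dashed line stands at 100 bases. The 21 members left of the line hold 323 counts together and the 21 to its right 46779.

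H2A and H2B genes that start head to head are known to share a promoter region. Their partners were unequal in the 3 pairs with an abundant member. Hist1h2bc stood at 20.9 CPM per kb and Hist1h2ac, which starts 251 bases away on the other strand, at 0.0828 CPM per kb. Hist2h2be stood at 1.88 CPM per kb and its partner Hist2h2ac, 239 bases away, at 0.0884 CPM per kb. Hist3h2a stood at 1.77 CPM per kb and the pseudogene Hist3h2bb-ps beside it at 0.0219 CPM per kb. The partners also differ in annotated exon length and in the share of 75-base windows found in other genes. Hist2h2be has 2620 bases and 0% shared, and Hist2h2ac 520 bases and 34.5%. Hist1h2bc has 1156 bases and 27.1% shared, and Hist1h2ac 2482 bases and 11.1%. Hist3h2a has 2146 bases and 30.6% shared, and Hist3h2bb-ps 465 bases and 19.2%. The part of these differences in the levels was not tested. In the other 12 pairs, neither partner gave more than 75 counts over the 16 libraries.

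Before the comparisons, the labels were checked against Nr4a1 and marker genes. Nr4a1 averaged 308.7 ± 12.8 CPM in KO VAT and 1536 ± 97.5 CPM in WT VAT, and 201.4 ± 6.11 CPM in KO SAT and 1087 ± 99.4 CPM in WT SAT (SD, n = 4 each), so reads still fell on the gene in KO libraries. The 10 progenitor markers, among them Pdgfra and Cd34, summed to 33204 to 41743 CPM in VAT libraries and 87736 to 118367 CPM in SAT libraries. The 5 mesothelial markers, from the cell layer covering visceral fat, summed to 663 to 1385 CPM in VAT libraries and 6.60 to 10.1 CPM in SAT libraries, and the 5 epithelial markers to 38.9 to 105 and 1.48 to 6.70 CPM. The macrophage markers (5 of 6 listed genes are in the matrix) summed to 30.1 to 53.0 CPM in VAT and 16.9 to 29.0 CPM in SAT libraries, pericyte and smooth muscle markers to 3677 to 4651 and 1562 to 3260 CPM, and endothelial markers to 84.2 to 127 and 203 to 306 CPM. Lymphocyte markers summed to 1.03 to 2.44 CPM and erythroid markers to 26.4 to 151 CPM over all libraries, and every marker in the matrix had a count somewhere. In bulk samples fewer cells of a type and less RNA per cell cannot be told apart.

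In VAT, no clustered histone gene passed the test between genotypes. By edgeR's quasi-likelihood test over 16842 genes with Benjamini-Hochberg adjustment, 0 of 12 tested members were called at an adjusted p under 0.05, where 4.10% of all tested genes were called. At an unadjusted p under 0.05 there were 2 members, Hist2h2be and Hist1h4i; limma-voom called 0, and DESeq2 called 1, Hist1h4i, with an adjusted p for 8 of the 12. The 12 fold changes ranged from -0.47 to 1.80 on the log2 scale with a median of 0.25, beside a median of -0.004 over all tested genes.

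Hist1h4i, one of several genes for the same H4 protein, came nearest to a call in VAT. Its levels in KO VAT were 0.568, 0.308, 0.392 and 0.516 CPM (82 counts), against 0.108, 0.0623, 0.119 and 0.214 CPM (25 counts) in WT VAT. All 4 KO VAT libraries lay above all 4 WT VAT libraries. The log2 fold change was 1.80 ± 0.50 (SE), with an adjusted p of 0.0538 by edgeR. Across the other fits it ranged from 0.0147 with DESeq2 to 0.150 without WT VAT library 1, and it passed the threshold with library totals as scaling (0.0454), with the VAT groups alone (0.0417), and without WT SAT library 2 (0.0313) or WT SAT library 3 (0.0349). Without the filter it was 0.085 (edgeR). The KO VAT libraries held 14 to 28 counts each and the WT VAT libraries 3 to 11. With the VAT groups alone the gene therefore passed the filter through the KO VAT libraries, where it is high. In SAT the gene stood at 0.504, 0.337, 0.253 and 0.427 CPM in KO libraries and 0.502, 0.102, 0.634 and 0.236 CPM in WT libraries, which overlap.

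Hist2h2be had 6.07, 5.17, 5.69 and 9.01 CPM in KO VAT, against 4.79, 5.46, 4.32 and 4.69 CPM in WT VAT. The fourth KO VAT library was the highest of all 16, and the groups overlap at the second library of each. The log2 fold change was 0.43 ± 0.15 with an adjusted p of 0.136 by edgeR, and 0.23 with 0.449 without KO VAT library 4. In SAT the same gene had 4.63, 4.22, 4.14 and 4.16 CPM in KO libraries and 4.70, 3.73, 3.77 and 4.25 CPM in WT libraries, with no separation. Hist3h2a averaged 3.66 ± 0.86 CPM in KO VAT and 3.80 ± 0.43 CPM in WT VAT, and 3.76 ± 0.49 CPM in KO SAT and 3.93 ± 0.64 CPM in WT SAT (SD, n = 4 each). Trim17 and a predicted gene on the other strand together overlap 33.0% of the exon bases of Hist3h2a, so its reads may be shared.

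In SAT, 1 of 12 tested members was called, the H1 gene Hist1h1c, where 5.89% of all tested genes were called and 3.46% were called higher. Hist1h1c had 66.3, 64.5, 61.5 and 65.0 CPM in KO SAT, against 43.8, 38.4, 65.1 and 38.9 CPM in WT SAT. The KO SAT libraries were tightly grouped, while WT SAT library 3 stood among them and the other 3 WT SAT libraries well below. The log2 fold change was 0.47 ± 0.13 with an adjusted p of 0.0498 by edgeR. The call lay close to the threshold and was lost with DESeq2's size factors (adjusted p = 0.0502), with the SAT groups alone (0.122) and without any 1 library other than WT SAT library 3 (0.0522 to 0.118). It was kept by DESeq2 (0.0157), limma-voom (0.0283), library totals (0.0422) and the fit without a filter (0.0429). Without WT SAT library 3 the log2 fold change was 0.67 and the adjusted p 0.000337. In VAT, Hist1h1c had 57.6, 62.3, 75.1 and 69.3 CPM in KO libraries and 54.1, 55.96, 65.4 and 60.5 CPM in WT libraries, and was not called.

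Hist1h2bc showed the same layout of libraries without a call. It had 27.9, 23.9, 25.2 and 28.3 CPM in KO SAT and 21.8, 17.2, 30.4 and 15.3 CPM in WT SAT, with WT SAT library 3 again the highest of its group and here of all 16. In VAT it had 23.4, 24.6, 29.4 and 28.3 CPM in KO libraries and 23.4, 20.2, 24.8 and 22.7 CPM in WT libraries. Hist1h2be averaged 1.03 ± 0.49 CPM in KO SAT and 0.952 ± 0.15 CPM in WT SAT, and the H3 gene Hist2h3c2 1.10 ± 0.18 and 0.753 ± 0.16 CPM (SD, n = 4 each). Neither was called.

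**Figure D3:**
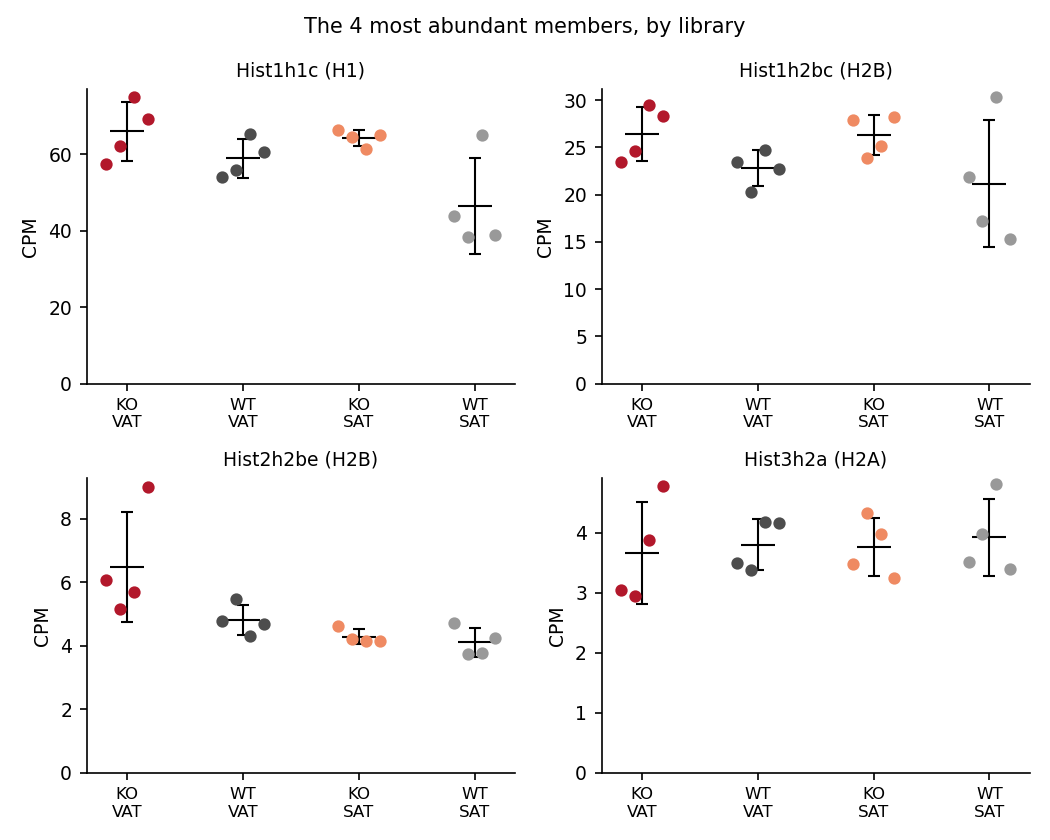
CPM per library (points) with the mean and SD (bars, n = 4 each) of the 4 most abundant members in KO VAT, WT VAT, KO SAT and WT SAT. WT SAT library 3 (65.1 CPM of Hist1h1c) stands with the KO SAT libraries (61.5 to 66.3 CPM), apart from the other 3 WT SAT libraries (38.4 to 43.8 CPM).

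Among the tested members, the H4 gene Hist1h4a had the lowest p of those lower in KO SAT. It had 0, 0.155, 0.0230 and 0.0406 CPM (9 counts) in KO SAT, against 0.251, 0.306, 0.267 and 0.142 CPM (37 counts) in WT SAT. The groups overlap only at KO SAT library 2 and WT SAT library 4. The log2 fold change was -2.13 ± 0.65, with an adjusted p of 0.0615 by edgeR. The adjusted p was 0.0298 by limma-voom, 0.0149 without KO SAT library 2 and at most 0.175, without KO SAT library 4, and DESeq2 gave none. Only WT libraries carried the gene past the filter, and without the filter the adjusted p was 0.139 (edgeR). In VAT it averaged 0.113 ± 0.034 CPM in KO and 0.159 ± 0.070 CPM in WT libraries (SD, n = 4 each).

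Averaged over both depots, 0 of 12 members were called by edgeR, where 8.06% of all tested genes were called, although 5 had an unadjusted p under 0.05. Hist1h1c had a log2 fold change of 0.32 ± 0.09 with an adjusted p of 0.0501, Hist1h2bc of 0.27 ± 0.11 with 0.167, and Hist2h2be of 0.24 ± 0.11 with 0.199, or 0.14 without KO VAT library 4. Hist1h4i had 0.93 ± 0.34 with an adjusted p of 0.114, and Hist1h4a had -1.30 ± 0.44 with 0.0821. DESeq2 called Hist1h1c (adjusted p = 0.0206) and limma-voom called Hist1h1c (0.0305) and Hist1h4a (0.0442). Without WT SAT library 3 the adjusted p was 0.000252 for Hist1h1c and 0.00577 for Hist1h2bc. Hist1h1c also passed without KO VAT library 1 (0.0448), with library totals as scaling (0.0290) and without the filter (0.0482), and Hist1h4a without KO SAT library 2 (0.0159). The difference between the KO effects in VAT and in SAT was called for 0 of 12 members by edgeR, DESeq2 and limma-voom, where 0.267% of all tested genes were called, and 1 member, Hist1h4i, had an unadjusted p under 0.05 (log2 difference 1.73 ± 0.69, adjusted p = 0.244 by edgeR).

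Summed by type, the levels differed between genotypes by ratios of 0.875 to 1.48. All members together summed to 107.7 ± 12.1 CPM in KO VAT and 94.1 ± 6.79 CPM in WT VAT, and to 102.9 ± 3.52 CPM in KO SAT and 79.5 ± 20.2 CPM in WT SAT (SD, n = 4 each). The ratio of means was 1.14 in VAT and 1.29 in SAT, or 1.10 to 1.19 and 1.22 to 1.47 when 1 library was left out. WT SAT library 3, at 108.5 CPM, lay above every KO SAT library (99.4 to 107.1 CPM). Of the H1 genes the ratio was 1.12 in VAT and 1.38 in SAT, and of H2B genes 1.20 in both depots. H2A genes stood at 0.997 in VAT and 0.970 in SAT. H3 genes stood at 1.13 in VAT and 1.48 in SAT, and H4 genes at 1.47 in VAT and 0.875 in SAT. No test was made of these sums, and outside H4 each rests mostly on a single gene. Hist1h1c gave 41830 of 42129 H1 counts and Hist1h2bc 17063 of 21479 H2B counts. Hist3h2a gave 2658 of 2940 H2A counts and Hist2h3c2 621 of 798 H3 counts. The largest H4 share was 228 of 658 counts, from Hist1h4i. Without Hist1h1c the remaining 69 members summed to 41.6 ± 5.24 CPM in KO VAT and 35.1 ± 2.13 CPM in WT VAT, and to 38.6 ± 2.02 CPM in KO SAT and 32.9 ± 7.88 CPM in WT SAT.

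The 58 members with too few counts for a test, which hold all the genes whose annotated transcripts end within 100 bases of the stem-loop except Hist1h4h, were summed per library. In VAT they gave 1.85, 1.56, 1.66 and 2.32 CPM (91, 71, 76 and 99 counts) in KO libraries, against 0.911, 1.27, 1.23 and 0.953 CPM (42, 61, 62 and 49 counts) in WT libraries. Every KO VAT library lay above every WT VAT library, and the ratio of means was 1.70. The same sum over all 10767 rows that had a count but too few for the test had a ratio of 1.57 in VAT. Of the 44 untested members with a count, 61.4% had a higher mean in KO VAT than in WT VAT, beside 53.2% of those 10767 rows. In SAT the untested members gave 1.08, 1.19, 1.33 and 1.32 CPM in KO libraries and 1.10, 0.893, 1.34 and 0.519 CPM in WT libraries, with a ratio of means of 1.28 beside 1.01 for all such rows. The untested members with most counts were Hist1h1d with 123, an H1.3 gene, and Hist1h3d with 93. Hist1h1d had 48 counts in KO VAT and 26 in WT VAT, and 26 in KO SAT and 23 in WT SAT. Hist1h3d had 0.162, 0.308, 0.218 and 0.516 CPM in KO VAT and 0, 0.145, 0.119 and 0.0778 CPM in WT VAT. The gene had too few counts for the main test, and without the filter its adjusted p in VAT was 0.416 (edgeR). Hist1h1e, for H1.4, had 21 counts in KO VAT and 3 in WT VAT, and 15 in KO SAT and 7 in WT SAT, and 25.7% of its exon bases overlap other genes. The H2A gene Hist1h2ad had 19 and 3 counts in VAT, and 13 and 1 in SAT, in KO and WT libraries, and the H2B gene Hist1h2bg had 32 and 10, and 21 and 12. The other way round, the H3 genes Hist1h3a had 6 counts in KO VAT and 17 in WT VAT, and Hist1h3c 3 and 8, while the H2A gene Hist2h2ac had 10 and 9. Without the filter the adjusted p in VAT was 0.161 for Hist1h1e, 0.308 for Hist1h2ad and 0.442 for Hist1h2bg, by edgeR. In SAT it was 0.648, 0.228 and 0.749. Among the H4 genes with a test but no call, Hist2h4 had 27 counts in KO VAT and 22 in WT VAT, and 36 in KO SAT and 16 in WT SAT, and Hist1h4h had 34 and 30, and 14 and 27.

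Between depots, the H1 gene Hist1h1b, which encodes H1.5, was higher in VAT in both genotypes. It had 0.264, 0.110, 0.262 and 0.235 CPM (40 counts) in KO VAT, against 0.0240, 0.0518, 0.0230 and 0.0406 CPM (6 counts) in KO SAT. In WT it had 0.0650, 0.0830, 0.297 and 0.156 CPM (30 counts) in VAT, against 0.0228, 0.0255, 0 and 0.0236 CPM (3 counts) in SAT. The VAT and SAT libraries did not overlap in either genotype. The ratio of CPM was 6.29 in KO (95% exact interval 2.65 to 18.2) and 7.91 in WT (2.46 to 40.5), which covers counting error only. The log2 fold change was 2.55 ± 0.60 with an adjusted p of 0.00224 in KO and 2.81 ± 0.70 with 0.00410 in WT, by edgeR. No SAT library held more than 2 counts, so the gene passed the filter through VAT libraries alone. The counts were 13, 5, 12 and 10 in the KO VAT libraries and 3, 4, 15 and 8 in the WT VAT libraries. With only the WT groups compared no member was called, so the WT call of Hist1h1b was not kept there. Without the filter the adjusted p was 0.00797 in KO and 0.00941 in WT (edgeR).

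In KO libraries 3 of 12 members were called between depots, all higher in VAT, where 43.3% of all tested genes were called and 23.3% called higher. The second was Hist2h2be, whose values above give 5.17 to 9.01 CPM in KO VAT and 4.14 to 4.63 CPM in KO SAT, with no overlap and a log2 fold change of 0.59 ± 0.15 (adjusted p = 0.00446, edgeR), or 0.40 (0.0162) without KO VAT library 4 and 0.95 with library totals as scaling. The third was the H2A gene Hist1h2ac, with 0.386, 0.132, 0.414 and 0.258 CPM in KO VAT and 0.192, 0.0777, 0.0230 and 0.0609 CPM in KO SAT. Its groups overlap at 1 library each, and its log2 fold change was 1.74 ± 0.54 (adjusted p = 0.0142, edgeR). That call was lost without KO SAT library 3 (0.0501) or KO SAT library 4 (0.0505). No SAT library held more than 8 counts of Hist1h2ac, so it passed the filter through VAT libraries alone. Without the filter its adjusted p was 0.0304 (edgeR). Hist1h2ac has 9.91% of its exon bases overlapped by 2 other genes. The H3 gene Hist2h3c2 went the other way without a call (adjusted p = 0.166, edgeR). It had 0.726 to 0.832 CPM in KO VAT and 0.873 to 1.31 CPM in KO SAT, which do not overlap.

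In WT libraries 2 of 12 members were called, where 36.7% of all tested genes were called, 19.1% higher and 17.6% lower. Hist1h1b was higher in VAT, as above, and Hist1h4i was lower in VAT by the values given for it, with a log2 fold change of -1.50 ± 0.51 (adjusted p = 0.0295, edgeR). Its WT VAT and WT SAT libraries overlap, and the call was lost without WT SAT library 1 (adjusted p = 0.0927) or 3 (0.104), or without WT VAT library 1 (0.0713), 2 (0.0871) or 3 (0.0656). It was also lost with limma-voom (0.0889) and with library totals as scaling (0.0574). With library totals as scaling the median of all tested genes between depots moves to 0.30 in WT and 0.36 in KO, and 5 members are called in WT. Hist1h1c had a log2 fold change of 0.34 ± 0.13 in WT with an adjusted p of 0.0546 by edgeR, 0.0412 by DESeq2, 0.0283 by limma-voom, 0.0427 without the filter, 0.000524 with library totals and 0.000116 without WT SAT library 3, where the log2 fold change was 0.55. Leaving out 1 of the other libraries gave an adjusted p of up to 0.197, without WT SAT library 2 (log2 fold change 0.24). The untested H2B gene Hist3h2ba had 1 count in WT VAT and 25 in WT SAT, a ratio of 0.0317 (95% exact interval 0.000771 to 0.193), and 12 counts in KO VAT and 4 in KO SAT. It was the one untested member called without the filter, here and in no other comparison (adjusted p = 0.00397, edgeR), and was picked after its values were seen. WT SAT library 3 held 13 of its 25 counts. The progenitor, mesothelial, epithelial and other markers given above also differ between depots, and their part in these differences was not tested.

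**Figure D4:**
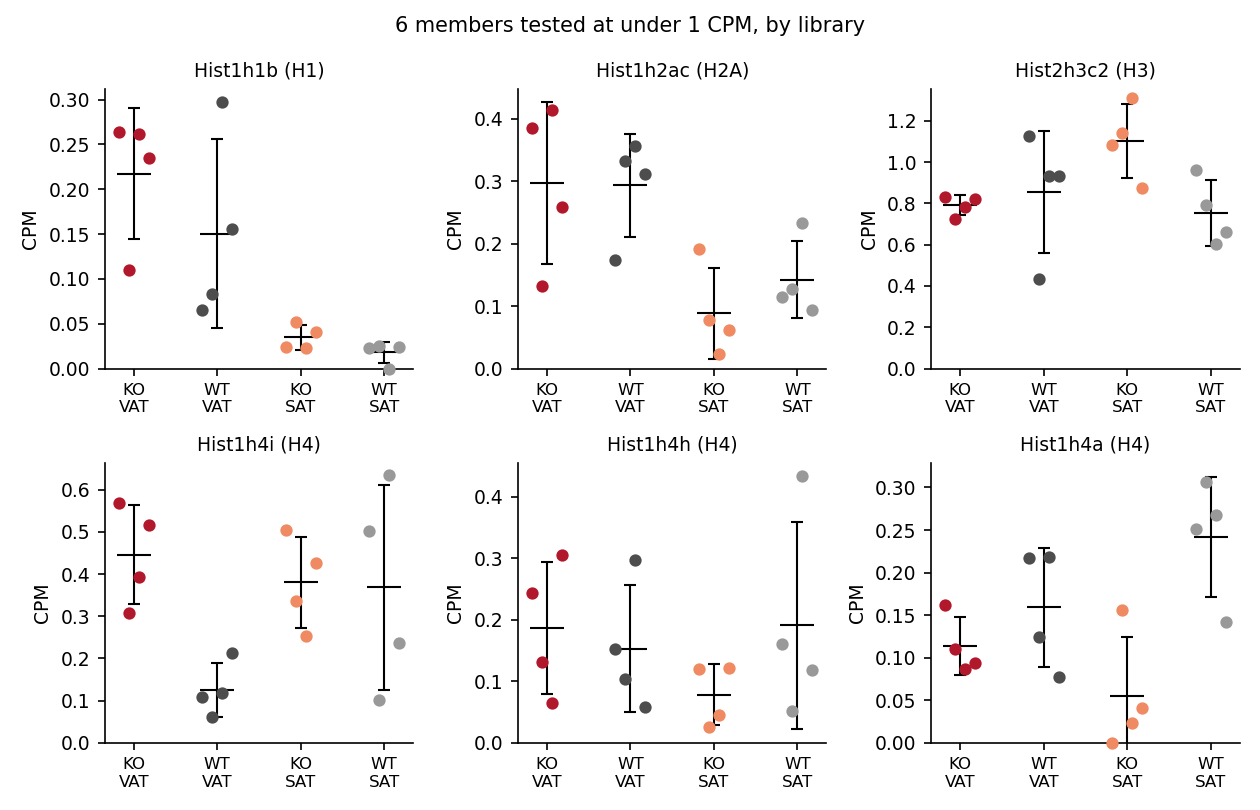
CPM per library (points) with mean and SD (bars, n = 4 each) of 6 members tested at under 1 CPM, in KO VAT, WT VAT, KO SAT and WT SAT. Hist1h1b separates VAT from SAT in both genotypes (0.110 to 0.264 against 0.0230 to 0.0518 CPM in KO), and Hist1h4i separates KO VAT (0.308 to 0.568 CPM) from WT VAT (0.0623 to 0.214 CPM).

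Cell cycle genes were higher in KO progenitors. All 18 genes of G2 and M phase were higher in KO in both depots, with a median log2 fold change of 1.57 in VAT and 1.52 in SAT, where 2.84% of all tested genes were called higher in VAT and 3.46% in SAT. Mki67, the proliferation marker, averaged 33.4 ± 5.08 CPM in KO VAT and 9.49 ± 1.42 CPM in WT VAT, and 24.8 ± 4.06 CPM in KO SAT and 7.24 ± 1.38 CPM in WT SAT (SD, n = 4 each). Its log2 fold change was 1.82 ± 0.15 in VAT (adjusted p = 3.71e-06) and 1.78 ± 0.16 in SAT (5.96e-06), by edgeR. Of 22 genes of S phase, when clustered histones are normally made, 17 rose in VAT and 7 in SAT and none fell, with medians of 0.70 in VAT and 0.37 in SAT. Leaving out 1 library left 13 to 17 called in VAT and 6 to 9 in SAT, and all 18 of G2 and M phase in both. Examples in VAT were Tk1, for thymidine kinase, at 1.15 ± 0.10 (adjusted p = 4.54e-06), Uhrf1 at 1.38 ± 0.14 (1.63e-05) and Rrm2, a subunit of ribonucleotide reductase, at 1.25 ± 0.15 (8.01e-05). The 12 tested members had medians of 0.25 in VAT and 0.09 in SAT, beside -0.004 and -0.01 over all tested genes. Of these 12, only Hist1h4h has an annotated end within 100 bases of a stem-loop match, so the medians say little of such short messages. The summed untested members had KO over WT ratios of 1.70 in VAT and 1.28 in SAT. All untested rows with a count had 1.57 and 1.01.

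Among the genes thought to switch on clustered histone transcription, 4 of 10 rose in KO VAT and 1 of 10 in KO SAT, and none fell. Of all tested genes, 2.84% were called higher in VAT and 3.46% in SAT. Ccne1, for cyclin E1, whose kinase activates the histone coactivator NPAT, had a log2 fold change of 1.16 ± 0.16 in VAT (adjusted p = 0.000269). E2f2 rose in VAT (1.40 ± 0.24, adjusted p = 0.00190) and in SAT (1.18 ± 0.25, 0.00892), and Ccne2 (0.73 ± 0.17, 0.0178) and E2f1 (0.44 ± 0.12, 0.0441) rose in VAT, all by edgeR. The E2f1 call held in 2 of 16 fits leaving out 1 library (adjusted p up to 0.111) and the Ccne2 call in 14 (up to 0.0631), and the count in VAT was 2 without KO VAT library 1 or WT VAT library 3. Npat itself averaged 14.7 ± 1.47 CPM in KO VAT and 15.8 ± 0.57 CPM in WT VAT, and 14.5 ± 1.48 CPM in KO SAT and 12.9 ± 3.22 CPM in WT SAT, and was not called. Between depots, E2f1 was lower in VAT, with a log2 fold change of -1.01 ± 0.12 in KO (adjusted p = 2.20e-06) and -1.42 ± 0.12 in WT (5.46e-08).

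Of the 17 genes for processing or decay of histone messages, 0 were called between genotypes in either depot by edgeR. Of all tested genes, 4.10% were called in VAT and 5.89% in SAT, so 0 of 17 lies near that share. An unadjusted p under 0.05 was found for 1 of the 17 in VAT and 6 in SAT. DESeq2 called 0 in VAT and 2 in SAT, and limma-voom 0 in both. The lowest p in SAT belonged to Snrpd3 and Snrpb, which encode proteins of small nuclear ribonucleoproteins, with log2 fold changes of -0.34 ± 0.11 and -0.32 ± 0.11 (adjusted p = 0.0886 and 0.0938, edgeR). WT SAT library 3 stood above the other WT SAT libraries for both, at 52.2 against 35.1 to 37.3 CPM of Snrpd3 and 152 against 97.4 to 109 CPM of Snrpb. Without it their log2 fold changes were -0.19 and -0.17 (adjusted p = 0.210 and 0.218). Slbp, whose product binds the stem-loop, averaged 26.9 ± 2.57 CPM in KO VAT and 24.8 ± 1.45 CPM in WT VAT, and 27.8 ± 1.35 CPM in KO SAT and 27.7 ± 2.47 CPM in WT SAT (SD, n = 4 each). The list had a median log2 fold change of -0.002 in VAT and 0.011 in SAT.

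Among the chaperones that carry and deposit histones, in both depots 4 of 21 rose and none fell, where 2.84% of all tested genes were called higher in VAT and 3.46% in SAT. In both depots these 4 were Asf1b, Chaf1a and Chaf1b, which hand new H3 and H4 to replicating DNA, and Tonsl. Asf1b had a log2 fold change of 1.54 ± 0.18 in VAT (adjusted p = 7.66e-05) and 1.47 ± 0.19 in SAT (0.000163), and Chaf1b of 1.22 ± 0.20 (0.00123) and 0.89 ± 0.21 (0.0169), by edgeR. In SAT the count was 1 without KO SAT library 4 or WT SAT library 1 and 2 without WT SAT library 3, and the calls of Chaf1a and Tonsl held in 1 and 5 of 16 fits leaving out 1 library. The Asf1b calls held in all 16 in both depots. Of the histone genes outside the clusters, Cenpa, for the centromeric H3, rose in VAT (1.19 ± 0.14, adjusted p = 6.06e-05) and SAT (0.90 ± 0.14, 0.000716). H2afx, the one gene of this list with the stem-loop letters, rose in VAT (0.60 ± 0.12, adjusted p = 0.00714) and had 0.26 ± 0.12 in SAT (0.215). H2afz rose in VAT (0.42 ± 0.09, 0.0166), a call kept in 12 of 16 fits leaving out 1 library. That makes 3 of 11 called higher in VAT and 1 of 11 in SAT, beside the same 2.84% and 3.46% of all tested genes. H3f3b, for the replacement histone H3.3, averaged 414.8 ± 12.7 CPM in KO VAT and 446.7 ± 20.1 CPM in WT VAT and was not called, and H1f0, for the H1 of resting cells, averaged 165.8 ± 5.33 and 137.8 ± 4.75 CPM and was not called either (adjusted p = 0.0545, and 0.00487 without WT SAT library 3).

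**Figure D5:**
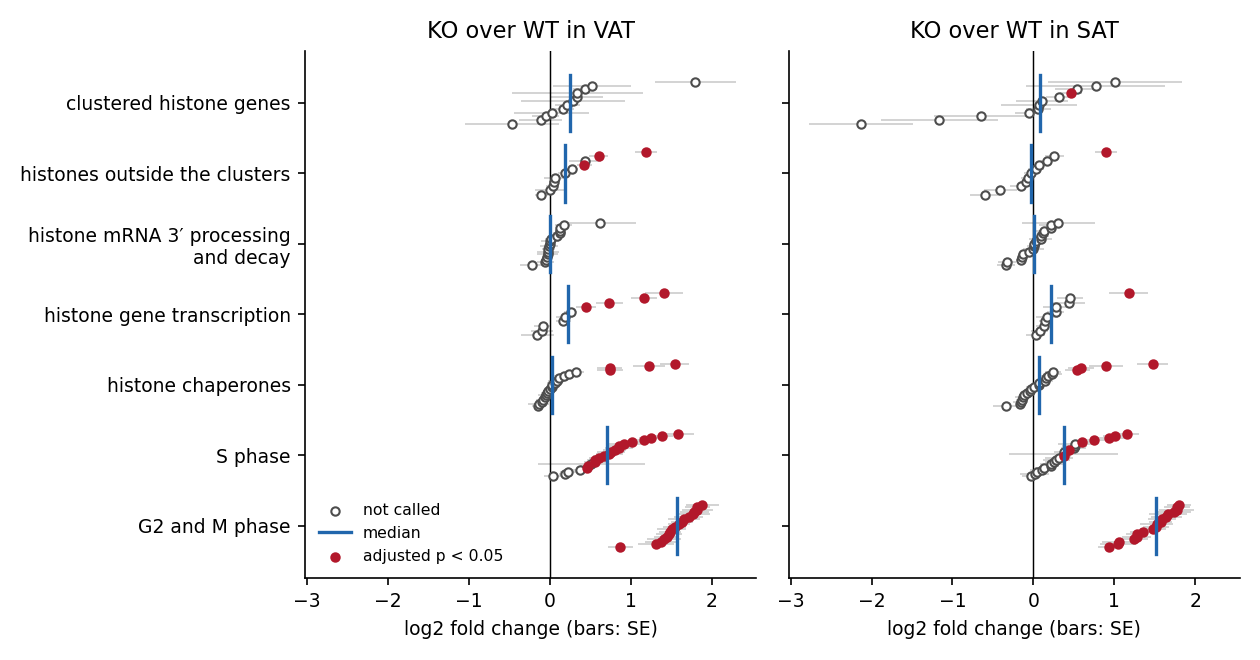
Log2 fold change of KO over WT in VAT (left) and SAT (right) for the 12 tested clustered histone genes and 6 lists of related genes; points are genes, bars the SE, filled points have an adjusted p under 0.05 and the vertical strokes are medians. The 18 genes of G2 and M phase all lie right of 0, while the clustered histones have medians of 0.25 in VAT and 0.09 in SAT.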

How the data were processed

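Adipose progenitor RNA was sequenced as single reads of 75 bases from 16 libraries, 4 per group. Reads were aligned and counted with tools that the submitters' processing notes list as STAR, FastQC, featureCounts and DESeq, with genome mm10; how reads with several matches were handled, and with which strand setting, is not stated there. Raw counts per gene were deposited by the authors and used here for every result. Normalized values, a signal per gene that the authors' deposited matrix holds as counts divided by a size factor per library, were used only to check that both hold the same counts (largest relative deviation 4.94e-10). The library kit does not mark strand, so reads of overlapping genes on opposite strands cannot be told apart.

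edgeR 4.0.16 in R 4.3.3 was run on all 16 libraries with 1 coefficient per group, filterByExpr, TMM scaling and the quasi-likelihood test, and p-values were adjusted over 16842 genes. The fit was tested on simulated data with known changes. Alternatives were DESeq2 1.42.0, limma-voom 3.58.1, other scalings, no filter, a replicate block, only the groups compared, and leaving out each library. The members and the gene lists were chosen with earlier results of these data known. Named with values are the 4 members of highest level of each type, called members, and up to 4 genes of smallest p per list, with Slbp, Npat, Mki67 and Nr4a1; other members are named for sequence, position or a lack of counts, and Hist3h2ba and H3f3b after their values were seen. Fold changes of single members are given where the unadjusted p was under 0.05. Transcripts came from GENCODE vM21 (GRCm38). Rows with date-like symbols stayed in library totals and are not named.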

Additional observations from a re-analysis of the deposited data

Results flagged for a closer look

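Among the 72 groups of 4 libraries examined for a library standing far from the rest, 1 did, while chance gives about 1 in 20. Hist1h1b in WT SAT stood at 0 CPM in library 3, while the other 3 libraries lay between 0.0228 and 0.0255 CPM. Those 3 libraries held 1 count each, so the gap is a single read.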

How the results depend on the processing

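In SAT, KO against WT, 1 member was called; the count was 0 with DESeq2's size factors and with only the 2 groups compared, 2 with limma-voom, and 0 to 2 when 1 library was left out. In VAT the count of 0 became 1 with library totals, DESeq2 or only the groups compared, and was 0 to 1 without 1 library. Averaged over depots the count of 0 became 1 with library totals, DESeq2, no filter or the replicate block, 2 with limma-voom, and 0 to 2 without 1 library. For VAT against SAT the count in WT of 2 became 5 with library totals, 4 without a filter and 0 with only the groups compared (7 members tested), and 1 to 3 without 1 library; in KO the count of 3 became 1 with only the groups compared (7 members tested), and was 2 to 4 without 1 library. The difference between the KO effects stayed at 0 in every fit. The summed level of all members in KO was 1.05 times higher in VAT than in SAT, and 1.33 times with library totals. Where the cause is not a smaller number of members tested, it was not tested.

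The count of all called genes ranged over the fits from 469 to 1710 in SAT and 412 to 1248 in VAT for KO against WT (992 and 690 in the main result), and from 7 to 563 for the difference (45). For KO against WT averaged over depots it ranged from 1002 to 1959 (1358 in the main result). Between depots it ranged from 4918 to 9176 in WT (6187 in the main result) and from 6593 to 10544 in KO (7292). Among called genes, library totals put 85.6% higher in VAT in WT and 86.7% in KO, against 52.0% and 53.8% with TMM, and 80.9% against 69.3% higher in KO VAT. Replicate numbers were not taken as pairs, since no comparison had every same-numbered correlation over 0.1 (-0.160 to 0.176 between genotypes, -0.041 to 0.144 between depots). Of 8 libraries per comparison, 1 (SAT) and 2 (VAT) correlated best with their own number between genotypes and 5 between depots in each genotype, a hint of pairing from the data, not the design. With the replicate block 1, 0 and 1 members were called for KO against WT in SAT, VAT and on average, and 3 between depots in each genotype; the call gained was Hist1h1c, on average (adjusted p = 0.0242) and between depots in WT (0.0163). The 58 untested members share 910 counts, which limits what can be detected for each; without the filter 1 of them, Hist3h2ba, was called in 1 comparison.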
